A study of Arabidopsis thaliana with 6 samples.

Results

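UDP-glycosyltransferases of Arabidopsis thaliana were described in seedlings that overexpress a NAC transcription factor gene and in the wild type. Members were the rows of the expression table whose gene name starts with UGT or whose description carries the family text for UDP-glucoronosyl and UDP-glucosyl transferases, with 5 genes left out by the selection rule. Of 125 matching rows, 120 were kept, out of 32962 genes in the table. The name alone or together with the description brought in 101 of them, and the description alone brought in 19. The members comprised 112 protein-coding genes and 8 long non-coding RNAs, and those RNAs carry the family text of the UGT gene they overlap. BOA (AT5G59570), a gene of the circadian clock, met the rule in the same way because it overlaps UGT76E1.

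The series holds 3 wild-type Col-0 libraries and 3 libraries of EsANAC029-OE, which overexpresses EsANAC029, a NAC gene of the forage grass Elymus sibiricus. Both groups were seedlings 25 days old, kept at 25 °C on a cycle of 16 h light and 8 h dark. The promoter of the transgene, the number of transgenic lines and whether plants were pooled were not found in the sources used here. Nothing in the labels says that the replicates were grown separately, so p-values measure the spread between these libraries, which may be partly technical.

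UDP-glycosyltransferases move a sugar from a UDP-sugar to a small acceptor such as a plant hormone, a flavonoid, a phenylpropanoid or a foreign compound. The sugar usually makes the acceptor more soluble, often inactivates it, and prepares it for storage in the vacuole. Near its C-terminal end the protein carries a signature box that holds the UDP-sugar, and its last residue, most often glutamine, takes part in the choice of the sugar. Many of these genes stand in tandem arrays of near copies.

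A box of 44 residues was sought in the translated coding sequences, defined as tryptophan, any 17 residues, histidine, any residue, glycine, an aromatic residue and any 22 residues. It was found in 104 of the 112 protein-coding members, whose proteins were 351 to 519 residues long. Its last codon encoded glutamine in 99 members, histidine in 3, asparagine in 1 and arginine in 1. The pattern was not found in BOA, AT4G34139, AT3G46650, UGT79B7, UGT79B8, UGT79B11 or the pair of sterol glucosyltransferases UGT80A2 and UGT80B1. The boxes of 4 UGT85A neighbours are shown because these near copies changed in opposite directions. Capitals mark the 6 codons that start at the histidine and the last codon.
UGT85A2 (TAIR10, chr1:7895308-7895439, minus strand): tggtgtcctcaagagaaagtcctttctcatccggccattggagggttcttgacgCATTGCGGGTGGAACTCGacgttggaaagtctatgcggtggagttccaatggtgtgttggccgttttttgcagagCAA
UGT85A5 (TAIR10, chr1:7898356-7898487, minus strand): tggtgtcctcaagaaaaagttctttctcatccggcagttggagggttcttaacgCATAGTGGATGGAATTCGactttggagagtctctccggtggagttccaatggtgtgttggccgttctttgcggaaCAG
UGT85A3 (TAIR10, chr1:7900774-7900905, minus strand): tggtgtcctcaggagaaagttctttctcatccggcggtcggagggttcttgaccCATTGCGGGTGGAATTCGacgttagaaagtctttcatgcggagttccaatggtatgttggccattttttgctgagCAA
UGT85A1 (TAIR10, chr1:7904103-7904234, minus strand): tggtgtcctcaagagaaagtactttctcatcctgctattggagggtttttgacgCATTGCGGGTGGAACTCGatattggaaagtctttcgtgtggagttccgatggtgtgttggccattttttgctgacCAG
All of these boxes end in a glutamine codon, CAA in UGT85A2 and UGT85A3 and CAG in UGT85A5 and UGT85A1.

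The libraries held 19608819 to 21715274 reads assigned to genes. EsANAC029-OE replicate 1 stood apart, with a correlation of log2 values of 0.82 to 0.83 with the other two of its group, which correlated at 0.94 with each other. Wild-type libraries correlated at 0.97 to 0.98. Leaf markers were abundant, but all 5 were lower in every EsANAC029-OE library, with summed values of 23395 to 27560 FPKM in wild type and 2259, 7602 and 13247 in EsANAC029-OE. Of these 5 markers, LHCB3 passed the test as lower. The 9 root markers summed to 4.42 to 11.3 FPKM in wild type and 2.21, 108 and 0.92 in EsANAC029-OE. PYK10 alone gave 104 of the 108 FPKM in EsANAC029-OE replicate 2. The other root markers were low in all libraries, EXPA18 being listed at 0 throughout. No flower or seed marker reached the level needed for the test. In whole seedlings, fewer cells of a type and less RNA per cell cannot be told apart, and the part of these markers in the results on the family was not tested.

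Levels are given as FPKM, fragments per kilobase of gene scaled to sequencing depth, and each triplet follows replicates 1 to 3. The test, limma's moderated test on log2(FPKM + 1) with Benjamini-Hochberg adjustment, covered the 17221 genes that reached 1 FPKM in 3 or more libraries. A gene is said to have risen or fallen where its two-sided adjusted p was under 0.05, and a log2 fold change on this scale understates the change of low genes. Of the 120 members, 24 were listed at 0 in all 6 libraries, 42 had reads but stayed under this level, and 54 were tested.

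Many members listed at 0 lie under another annotated gene. Of the 13 protein-coding members with over 90% of their span covered by another gene, 10 were listed at 0, or 76.9%. Of the 15 with a smaller overlap 1 was, or 6.67%, and of the 84 with none 8 were, or 9.52%. Other protein-coding genes gave 78.8%, 6.26% and 17.8% in the same classes. For the 10 covered members a value of 0 is not read here as absent expression. They include UGT75B1, UGT89C1, UGT74D1, UGT73C6 and UGT71B6, each covered by an antisense RNA gene. The exceptions with reads were UGT73B4, which lies within UGT73B5 on the same strand, UGT76E1 and UGT91B1. UGT76E1 had only 1 read, in wild-type replicate 1, and UGT91B1 only 1, in wild-type replicate 2.

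**Figure D1:**
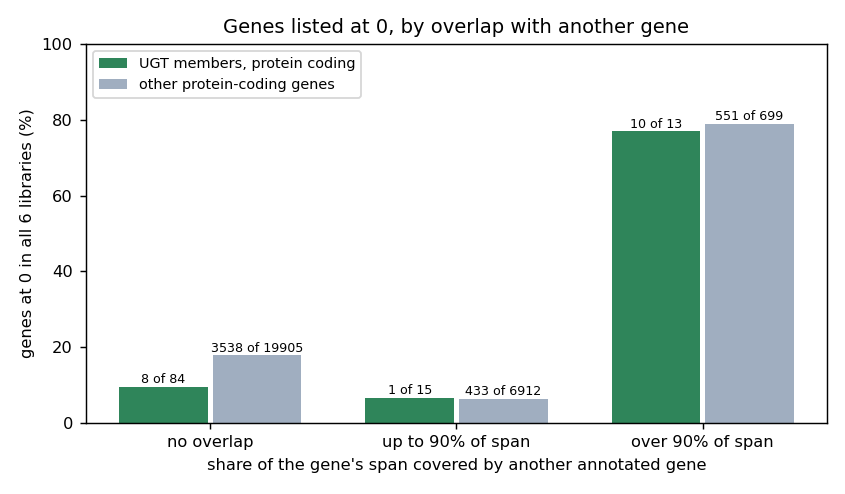
Share of protein-coding genes listed at 0 in all 6 libraries (percent, vertical axis) by the share of the gene's span covered by another annotated gene (horizontal axis), for UGT members and other protein-coding genes. Among genes covered over 90%, 10 of 13 members and 551 of 699 other genes were at 0.

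In the family 10 genes changed, 6 higher and 4 lower in EsANAC029-OE, each by at least 2-fold, and they span unlike branches of the family. UGT73D1, UGT87A2, UGT73C3, UGT85A1, UGT76F1 and UGT84A2 rose, and UGT85A5, UGT76C2, UGT85A2 and UGT85A3 fell. The 6 risen members were 11.1% of those tested, against 4.31% of all genes tested, and the 4 fallen ones were 7.41%, against 3.58%. In either direction 7.89% of all genes tested were called. At an unadjusted p under 0.05 there were 20 members, 11 higher and 9 lower, where 28.3% of all genes tested passed. The median log2 fold change was 0.21 over tested members and -0.01 over all genes tested.

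All 3 EsANAC029-OE values lay above all 3 wild-type values in 14 tested members, or 25.9%, against 19.6% of all genes tested. They lay below in 9, or 16.7%, against 20.3%, and the groups overlapped in the remaining 31. UGT73D1, UGT73C3, UGT76F1, UGT73B3 and UGT76E4 were under 1 FPKM in every wild-type library and were tested only through EsANAC029-OE. Lying above was thus fixed for them by the filter. UGT85A3 and AT3G21755 were under 1 FPKM in every EsANAC029-OE library, which likewise fixed their lying below. Of these, UGT73D1, UGT73C3 and UGT76F1 rose and UGT85A3 fell. How many of all genes tested passed the filter in this way is not given here. EsANAC029-OE replicate 1 was the highest library in 13 of the 14 members that lay above. This share was not computed over all genes tested, among which that replicate also stood apart from its group. Summed over all members, the level was 448, 515 and 552 FPKM in wild type and 921, 556 and 567 in EsANAC029-OE, so that replicate 1 stood well above the other libraries.

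The calls depended on single libraries. The counts below are of members alone, and whether calls over all genes moved to the same degree is not given here. Without EsANAC029-OE replicate 1, 9 members were higher and 7 lower, all 10 calls remaining. Those added were UGT73B2 (log2 fold change 1.56, adjusted p 0.00449), UGT92A1 (0.87, 0.0099), UGT76F2 (1.24, 0.0187), UGT72E1 (-1.27, 0.018), UGT71C5 (-0.59, 0.0454) and UGT71C4 (-0.75, 0.0487), all by limma. Without EsANAC029-OE replicate 2 there were 5 and 2, with UGT85A5, UGT85A3 and UGT84A2 lost. Without replicate 3 there were 7 and 5, with UGT87A2 lost and UGT73B2, UGT76E4 and UGT71C4 added. Without wild-type replicate 1 or 2, only UGT73D1 passed limma's adjusted test, and without replicate 3 none did, although 15, 15 and 14 members had an unadjusted p under 0.05. The log2 fold change of each of the 10 kept its sign whichever library was left out. That outcome was fixed in advance, because the groups of these 10 genes do not overlap.

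**Figure D2:**
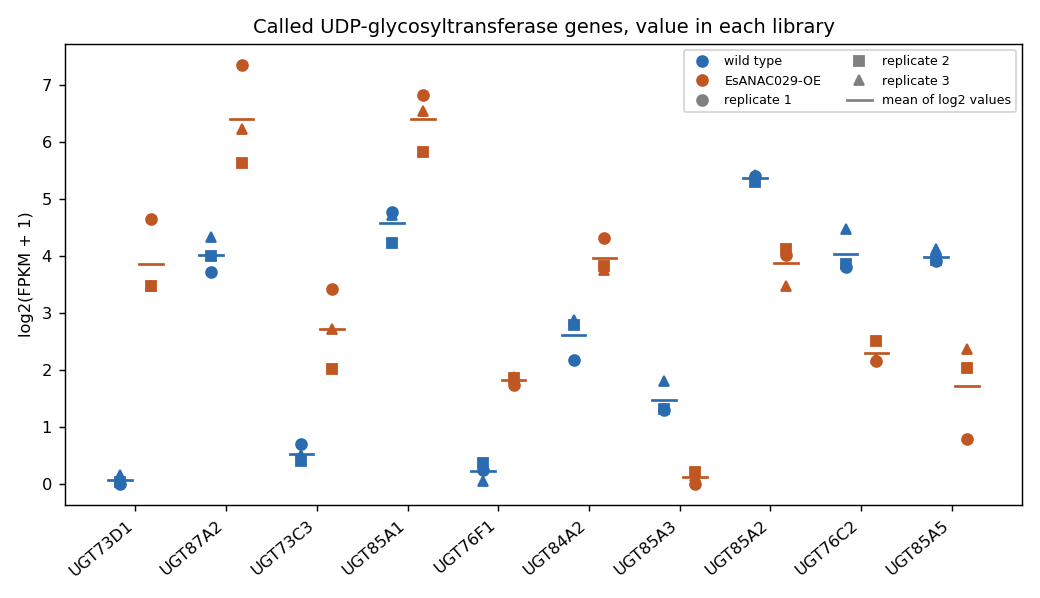
Level of the 10 called members in each library, as log2(FPKM + 1), with wild type in blue, EsANAC029-OE in orange, 1 marker shape per replicate and a bar at the group mean. For every gene shown the groups do not overlap, and EsANAC029-OE replicate 1 is the highest library for UGT73D1, UGT87A2, UGT73C3, UGT85A1 and UGT84A2.

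UGT73D1 (AT3G53150, TAIR10, chr3:19697607-19699392, minus strand) was close to silent in the wild type. It measured 0, 0.03 and 0.121 FPKM there, from 0, 1 and 4 reads, and 24.1, 10.1 and 10.1 FPKM in EsANAC029-OE, from 988, 469 and 406 reads. The groups were far apart, and the low wild-type count leaves the fold itself poorly fixed. Its log2 fold change was 3.79 ± 0.35 (SE, n = 3 a group; 95% interval 2.95 to 4.64) with a limma adjusted p of 0.00644.

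The genes for cytokinin conjugation moved in both directions. UGT76C1 and UGT76C2 attach glucose to ring nitrogens of cytokinins, which inactivates them, and UGT85A1 attaches it to the side-chain oxygen of trans-zeatin, a form from which the hormone can be released. UGT76C2 (AT5G05860, chr5:1765390-1767510) fell from 12.95, 13.6 and 21.2 FPKM to 3.47, 4.69 and 3.62, a 4.05-fold lower mean. The lowest wild-type library was well above the highest EsANAC029-OE library, and the log2 fold change was -1.75 ± 0.23 (SE, n = 3 a group; limma adjusted p = 0.0163). UGT85A1 (AT1G22400, chr1:7903660-7906969) rose from 26.5, 17.8 and 25.4 FPKM to 112, 56.0 and 92.6, a 3.74-fold higher mean. The spread among the EsANAC029-OE libraries was wide but began above the wild type, and the log2 fold change was 1.82 ± 0.30 (SE, n = 3 a group; limma adjusted p = 0.0265). UGT76C1, next to UGT76C2, measured 7.53, 5.89 and 6.33 FPKM against 3.96, 4.08 and 5.08, groups that do not overlap, but its log2 fold change of -0.50 (95% interval -0.92 to -0.07) missed the threshold at a limma adjusted p of 0.131.

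Among the genes for auxin conjugation, 2 of 5 could be tested and 1 rose, against 4.31% of all genes tested. UGT76F1 (AT3G55700, chr3:20671115-20673430), which glucosylates the auxin precursor indole-3-pyruvic acid, rose from 0.185, 0.297 and 0.0334 FPKM to 2.34, 2.63 and 2.68. The EsANAC029-OE libraries lay close together and far above wild type, with a 14.8-fold higher mean and a log2 fold change of 1.60 ± 0.19 (SE, n = 3 a group; limma adjusted p = 0.0121). The wild-type values rest on 6, 9 and 1 reads. UGT75D1, a glucosyltransferase of indole-3-butyric acid, measured 0.835, 1.42 and 2.06 FPKM against 4.94, 3.8 and 1.25, with overlapping groups and a limma adjusted p of 0.284. UGT74E2, which also acts on indole-3-butyric acid and is known from stress responses, was not tested because of its low level, and had 4, 5 and 8 reads in wild type against 338, 17 and 12 in EsANAC029-OE. Replicate 1 held nearly all of its reads. UGT84B1, which acts on indole-3-acetic acid, and UGT74D1, which acts on an oxidised auxin, were listed at 0, the latter at a covered position.

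The phenylpropanoid branch showed a rise of the gene for a sinapate ester next to a fall of the gene that consumes it. UGT84A2 (AT3G21560, chr3:7595680-7597607) makes sinapoylglucose from sinapate. It rose from 3.53, 5.92 and 6.36 FPKM to 19.1, 13.3 and 12.5, a 2.84-fold higher mean with a log2 fold change of 1.36 ± 0.26 (SE, n = 3 a group; limma adjusted p = 0.0352). Every EsANAC029-OE value was above every wild-type value. SNG1 (AT2G22990), which uses sinapoylglucose to make sinapoylmalate, fell from 197, 196 and 188 FPKM to 60.2, 60.7 and 106, with a log2 fold change of -1.39 ± 0.27 (SE, n = 3 a group; limma adjusted p = 0.0335). SNG1 was taken from a list of 6 genes of sinapate and monolignol conjugation, 3 of which were tested, with none higher and SNG1 the 1 lower. Over all genes tested 4.31% were higher and 3.58% lower.

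The relatives of UGT84A2 did not pass the test. UGT84A3 measured 5.44, 16.3 and 18.5 FPKM in wild type and 13.6, 3.28 and 1.8 in EsANAC029-OE, overlapping groups with a limma adjusted p of 0.313. UGT84A4 measured 2.54, 1.9 and 2.4 against 2.41, 2.82 and 3.21, with a limma adjusted p of 0.481 and a 95% interval of -0.23 to 0.66 on the log2 scale. UGT84A1 was too low to test, with 0, 1 and 6 reads against 0, 13 and 3. These 3 genes encode hydroxycinnamate glucosyltransferases. Of the monolignol glucosyltransferases, UGT72E1 measured 30.5, 21.3 and 21.3 FPKM against 22.7, 10.8 and 8.2, with a limma adjusted p of 0.19, and UGT72E2 and UGT72E3 were too low to test. UGT72E2 had 4, 0 and 0 reads in wild type and 78, 38 and 1 in EsANAC029-OE, so its reads came from the first and second replicates. UGT72B1, which conjugates chlorinated phenols and other foreign compounds, overlapped between groups at 11.9, 22.8 and 27.4 FPKM against 36.5, 23.0 and 22.3 (limma adjusted p 0.474).

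UGT87A2 (AT2G30140, chr2:12871984-12873866), known for its effect on flowering time, became the most abundant tested member by mean in EsANAC029-OE. This rank rested on replicate 1, since UGT85A1 was higher in replicates 2 and 3, at 56.0 and 92.6 FPKM. UGT87A2 measured 12.2, 15.1 and 19.1 FPKM in wild type and 163, 48.5 and 74.7 in EsANAC029-OE. The lowest EsANAC029-OE value exceeded the highest wild-type value by more than 2-fold, and replicate 1 was far above the other two. The mean was 6.17-fold higher and the log2 fold change was 2.39 ± 0.45 (SE, n = 3 a group; limma adjusted p = 0.0334). This gene no longer passed without EsANAC029-OE replicate 3 or without any of the wild-type libraries.

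The UGT73 branch was the one with the most tested members above the wild type. Of its 13 members 8 were tested, 2 rose and none fell, and in 6 of the 8 all EsANAC029-OE values exceeded all wild-type values. Over all genes tested 4.31% rose and 19.6% lay above in this way. UGT73D1, UGT73C3 and UGT73B3 were under 1 FPKM in every wild-type library, so only their EsANAC029-OE values brought them into the test. For these genes, which include the 2 that rose, lying above was fixed by the filter. The median log2 fold change over the 8 tested members was 1.76. The medians were 2.96, 1.45 and 0.83 in EsANAC029-OE replicates 1, 2 and 3 taken singly against the wild-type mean. Their summed level over the branch was 17.1, 18.0 and 14.7 FPKM in wild type and 162, 50.2 and 43.9 in EsANAC029-OE. The sums do not overlap, and replicate 1 was the highest.

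UGT73C3 (AT2G36780, chr2:15417364-15419391) rose from 0.617, 0.317 and 0.428 FPKM to 9.77, 3.05 and 5.63, a 13.5-fold higher mean with a log2 fold change of 2.19 ± 0.37 (SE, n = 3 a group; limma adjusted p = 0.0268). Its coding sequence shares 91.3% of aligned bases and a run of 211 identical bases with UGT73C4, longer than a read of the 150 sequenced from each end, so the split of reads between them is uncertain. UGT73C4 measured 1.33, 1.09 and 1.07 FPKM against 8.05, 1.26 and 1.66, with a limma adjusted p of 0.362. UGT73C5, which glucosylates brassinosteroids and the fungal toxin deoxynivalenol, measured 1.28, 5.39 and 1.38 FPKM against 28.0, 9.14 and 6.01. Its groups did not overlap, yet wild-type replicate 2 came close, and the limma adjusted p was 0.111. UGT73C6, the other brassinosteroid glucosyltransferase, was listed at 0 at a covered position.

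The UGT73B genes, of which UGT73B3 and UGT73B5 are known for a role in resistance to Pseudomonas syringae, were spread widely in EsANAC029-OE. UGT73B2 measured 4.16, 4.27 and 4.46 FPKM in wild type and 60.1, 16.1 and 13.1 in EsANAC029-OE, with a log2 fold change of 2.21 (95% interval 0.90 to 3.53; limma adjusted p 0.0606). UGT73B3 measured 0.653, 0.943 and 0.985 against 14.1, 3.94 and 1.18, and its limma adjusted p was 0.187. UGT73B5 measured 1.4, 1.07 and 0.944 against 13.1, 3.28 and 2.15, and its limma adjusted p was 0.154. In each of these genes replicate 1 was the highest EsANAC029-OE library and no group overlapped, which the filter fixed for UGT73B3. UGT73B1 went the other way, at 6.73, 4.17 and 4.12 FPKM against 3.37, 2.38 and 2.81, with a log2 fold change of -0.62 (limma adjusted p 0.145). UGT73B4 was not tested, and its 1, 2 and 0 reads against 27, 14 and 6 come from within the span of UGT73B5, with which it shares 89.8% of coding bases.

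Genes for abscisic acid, salicylate derivatives and dihydroxybenzoic acid gave no call. UGT71C5, which conjugates abscisic acid, measured 23.7, 24.4 and 19.2 FPKM against 25.9, 14.3 and 14.7, overlapping groups with a limma adjusted p of 0.455. UGT89A2, which glycosylates dihydroxybenzoic acids, measured 7.98, 8.92 and 10.6 against 15.4, 5.89 and 7.08, and its interval on the log2 scale ran from -0.89 to 0.78. UGT71C3, which acts on methyl salicylate, had 35, 37 and 32 reads against 11, 80 and 19, a spread in EsANAC029-OE on both sides of the wild type. UGT76D1, which also acts on dihydroxybenzoic acids, had 1, 0 and 0 reads against 118, 38 and 8. Both were under the level tested.

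Genes that decorate flavonols and anthocyanins gave no call. UGT78D1 and UGT78D2 add rhamnose and glucose to flavonols. UGT78D2 measured 3.12, 2.85 and 3.41 FPKM against 3.28, 4.41 and 4.71, with a limma adjusted p of 0.329. UGT78D1 measured 2.39, 4.19 and 6.05 against 1.41, 19.0 and 6.79, where EsANAC029-OE replicate 2 stood above and replicate 1 below every wild-type library. UGT75C1, an anthocyanin glucosyltransferase, had 30, 32 and 54 reads against 23, 41 and 26, and UGT79B1, also of anthocyanins, had 0, 2 and 5 against 3, 16 and 0. UGT79B2, linked to anthocyanin and cold, varied within both groups, at 6.88, 32.3 and 47.9 FPKM against 4.59, 29.1 and 4.55 (limma adjusted p 0.411), and it shares 95.4% of coding bases with UGT79B3, so reads of the pair may be split. UGT91A1, listed with the flavonol genes, had 1, 3 and 2 reads against 1, 8 and 0. UGT78D3 and UGT89C1 were listed at 0.

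The sterol glucosyltransferases were steadier. UGT80A2 measured 15.2, 13.2 and 12.8 FPKM against 11.6, 9.74 and 9.89, groups that do not overlap, with a log2 fold change of -0.37 (95% interval -0.75 to 0.01; limma adjusted p 0.185). UGT80B1 measured 11.6, 14.6 and 12.2 against 13.4, 7.62 and 9.09, with overlap and a limma adjusted p of 0.364. UGT88A1, the most abundant tested member of the wild type by mean, measured 36.2, 45.6 and 53.6 FPKM against 26.2, 29.95 and 36.8, and its limma adjusted p was 0.172. UGT92A1 and UGT71C4 were the members closest above the threshold. UGT92A1 measured 15.9, 17.1 and 16.7 FPKM against 61.7, 30.7 and 31.6 (limma adjusted p 0.0582), and UGT71C4 measured 27.0, 28.8 and 24.0 against 15.0, 12.7 and 18.6 (limma adjusted p 0.06).

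**Figure D3:**
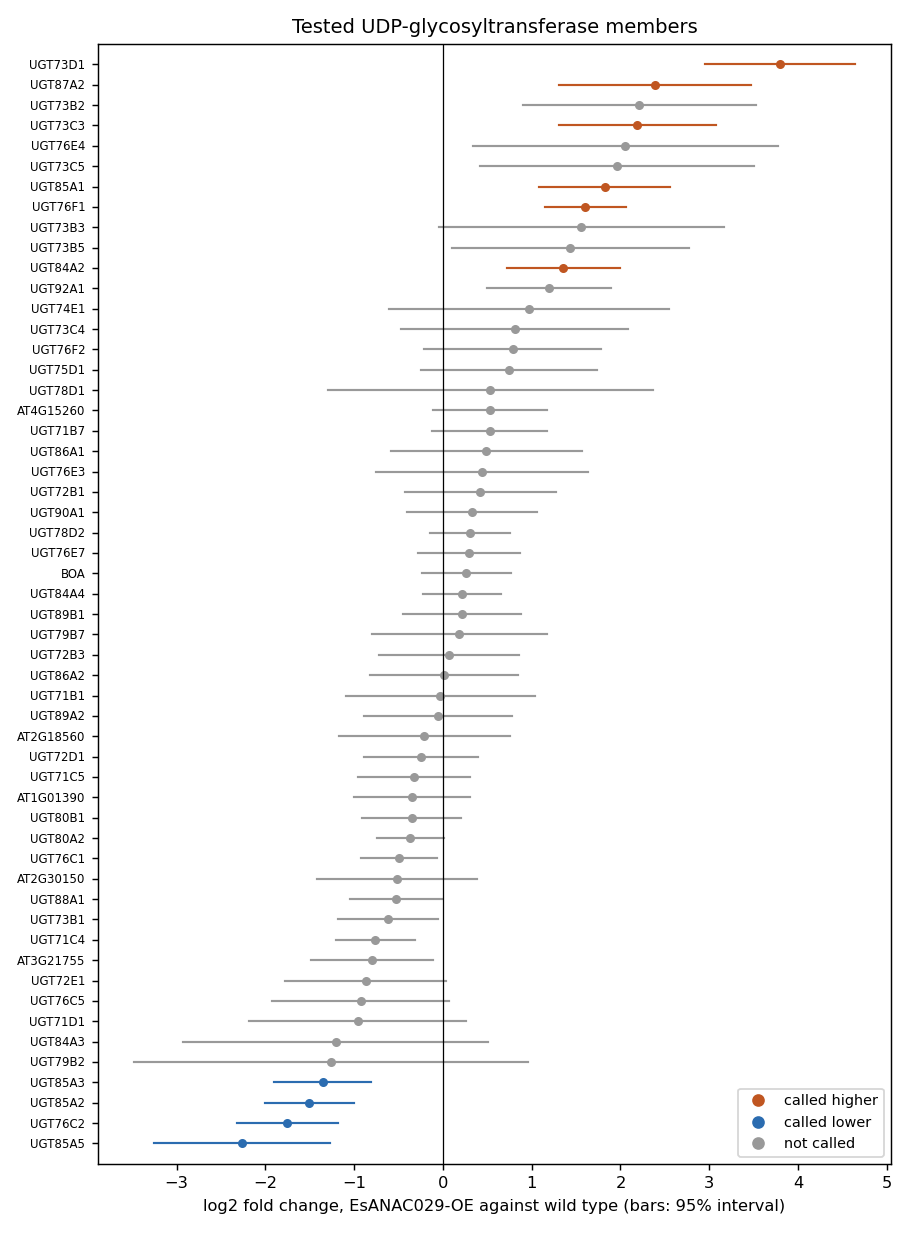
Log2 fold change of EsANAC029-OE against wild type (horizontal axis, log2(FPKM + 1) scale) with its 95% interval for the 54 tested members, in order of size. The 6 risen members are orange, the 4 fallen ones blue and the others grey, and several uncalled members such as UGT73B2 and UGT76E4 have large estimates with wide intervals.

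Members that stand near each other were set against each other. Of 110 protein-coding members considered, 71 stood in 24 arrays in which successive starts lay within 10000 bases. Genes outside the family that lie between such members were not looked for, so neighbours here need not be adjacent. The array of UGT85A7, UGT85A2, UGT85A5, UGT85A3 and UGT85A1 on the minus strand of chromosome 1 held 4 of the 10 called genes. UGT85A2, UGT85A5 and UGT85A3 fell, and UGT85A1 at the end of the array rose.

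UGT85A2 (AT1G22360, chr1:7894807-7897761) fell from 41.6, 38.2 and 42.0 FPKM to 15.1, 16.4 and 10.2, a 2.92-fold lower mean with a log2 fold change of -1.51 ± 0.21 (SE, n = 3 a group; limma adjusted p = 0.0174). UGT85A5 (AT1G22370, chr1:7897915-7900335) fell from 14.1, 14.3 and 16.4 FPKM to 0.719, 3.11 and 4.14, a 5.62-fold lower mean with a log2 fold change of -2.26 ± 0.41 (SE, n = 3 a group; limma adjusted p = 0.0317). UGT85A3 (AT1G22380, chr1:7900355-7902427) fell from 1.45, 1.49 and 2.51 FPKM to 0, 0.155 and 0.103, with a log2 fold change of -1.36 ± 0.22 (SE, n = 3 a group; limma adjusted p = 0.0261). In all of these genes the lowest wild-type library was above the highest EsANAC029-OE library. The EsANAC029-OE values of UGT85A3 rest on 0, 7 and 4 reads, against 50, 48 and 80 in wild type. UGT85A7 was too low to test, with 7, 38 and 23 reads against 42, 15 and 8.

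The difference between neighbours was measured within each library as the difference of their log2(FPKM + 1) values, which cancels the scale of the library in genes well above 1 FPKM. For UGT85A3 less UGT85A1 it was -3.49, -2.91 and -2.91 in wild type and -6.82, -5.62 and -6.41 in EsANAC029-OE, a shift of -3.18, which became -5.29 with a pseudocount of 0.1 and -6.68 with limma-voom. Their coding sequences share 82.0% of bases and no identical run above 38 bases, so no read of 150 bases lies within an identical run. UGT85A3 was near or under 1 FPKM, where the pseudocount of 1 enters the difference. Of 14 neighbour pairs with both genes tested, 8 had differences that did not overlap between groups. The share among other gene pairs was not computed, so this count is not read as a trait of the family. Taken singly, 19.6% of all genes tested lay wholly above the wild type and 20.3% wholly below. With 3 libraries a group the exact permutation test cannot go below 0.1, two-sided, and over 14 pairs these 8 had an adjusted p of 0.175, so none passed. Of the 8, UGT85A5 less UGT85A3 changed sign with a pseudocount of 0.1 and with limma-voom, and UGT73B3 less UGT73B2 went from -0.65 to -0.27 and -0.20. The pairs share libraries and, in arrays, genes.

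AT2G30150, the neighbour of UGT87A2, is described as UGT87A1 and measured 7.03, 5.11 and 5.88 FPKM in wild type and 1.79, 4.59 and 6.36 in EsANAC029-OE. The within-library difference of UGT87A2 less AT2G30150 was 0.72, 1.40 and 1.55 against 5.88, 3.14 and 3.36, a shift of 2.91 at 80.1% identity. UGT73B2 less UGT73B1 shifted by 2.83, at 72.9% identity. UGT76C2 less UGT76C1 shifted by -1.26, and UGT76E4 less UGT76E3 by 1.61, or by 2.68 with a pseudocount of 0.1 and 2.97 with limma-voom. The shift of UGT73C4 less UGT73C3 was -1.38, or -2.28 and -2.49 under the same alternatives, in a pair whose reads may be split unevenly.

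**Figure D4:**
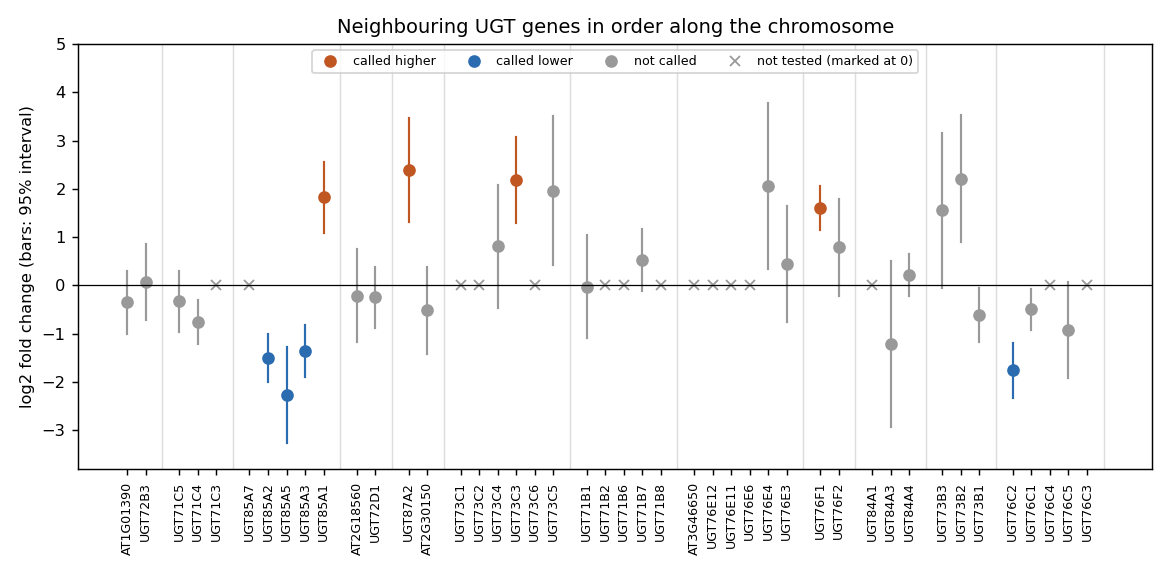
Log2 fold change with its 95% interval (vertical axis, log2(FPKM + 1) scale) for neighbouring UGT genes in their order along the chromosome (horizontal axis), arrays being parted by grey lines and untested genes marked by crosses at 0. In the UGT85A array 3 genes fell beside UGT85A1, which rose.

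Members with reads but under the level tested were most often highest in another library. Of these 42 genes, 23 had their highest value in EsANAC029-OE replicate 2, or 54.8%, against 34.7% of the 7650 such genes in the table. Reads of the 23 in that replicate ran from 1 in AT1G06002 and 2 in UGT79B3 and UGT79B4 to 97 in UGT76E9. At the lowest of these counts the highest library is poorly fixed. Replicate 1 was the highest for 10, or 23.8%, against 22.2%. The root gene PYK10 was also highest in replicate 2, at 0.193, 104 and 0.0246 FPKM against 0.887, 6.91 and 2.22 in wild type. Its part in these counts was not tested. In the root list TIP2;3, WOX5, COBL9, EXPA7, LRX1 and PHO1 were highest in a wild-type library. Of these, COBL9, LRX1 and EXPA7 peaked at only 0.024, 0.0186 and 0.179 FPKM. PHO1 was nearly level, at 3.74 FPKM in wild-type replicate 2 and 3.68 in EsANAC029-OE replicate 2. CASP1 was highest in EsANAC029-OE replicate 2, at only 0.170 FPKM, and EXPA18 was listed at 0. UGT71B5, chosen after its values were seen, had 1, 3 and 1 reads in wild type and 314, 64 and 7 in EsANAC029-OE, the reverse order of replicates 1 and 2. With no lower limit on level, 96 members could be tested, and none of the added 42 passed.

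Genes around the family were described from lists chosen with earlier results of these data known. Of 27 genes that make or interconvert UDP-sugars, the donors of the reaction, 25 were tested and none passed limma's adjusted test. An unadjusted p under 0.05 was reached by 2 of the 25, against 28.3% of all genes tested. The median log2 fold change of the 25 was -0.22, against -0.01 over all genes tested. Of 10 genes of anthocyanin and flavonol synthesis 3 were tested and none passed, with none at an unadjusted p under 0.05 and a median of -0.60. Of 10 regulators of flavonoids 2 were tested and 1 fell, against 3.58% of all genes tested. The fallen gene was MYBL2 (AT1G71030), a repressor of anthocyanin synthesis. It went from 44.4, 40.6 and 53.8 FPKM to 22.1, 5.78 and 8.11 (log2 fold change -2.06, limma adjusted p 0.0468).

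Of 11 genes known from the response to mitochondrial stress, 9 were tested, 1 rose and none fell, and in 5 all EsANAC029-OE values lay above the wild type, against 4.31% risen and 19.6% above over all genes tested. The risen gene was OM66 (AT3G50930), an outer mitochondrial membrane protein, from 5.32, 21.1 and 7.15 FPKM to 141, 55.8 and 68.4 (log2 fold change 2.98; limma adjusted p 0.0334). Of 16 genes of the response to foreign compounds 13 were tested, 2 rose and none fell, and 6 lay above the wild type throughout and 1 below it. The shares over all genes tested were 4.31% risen, 19.6% above and 20.3% below. GSTU24, among those above, was under 1 FPKM in every wild-type library, so the filter fixed its place. GRX480 (AT1G28480), a glutaredoxin that interacts with TGA factors, rose from 4.26, 10.9 and 2.64 FPKM to 110, 92.2 and 31.3 (log2 fold change 3.51; limma adjusted p 0.0291). CYP81D8 (AT4G37370), a cytochrome P450 induced by foreign compounds, rose from 10.4, 8.08 and 5.64 to 42.4, 19.7 and 23.6 (log2 fold change 1.67; limma adjusted p 0.0396).

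Sequences before the starts of the called genes were searched on both strands for TGACG, the core bound by TGA factors, TTGAC, the core of the W-box, CACGTG, the G-box, CATGTG, a core bound by NAC factors, and the mitochondrial dysfunction motif of mitochondrial stress genes. The window ran from 250 bases before to 50 after the annotated start, and TTGAC overlaps TGACG wherever the letters TTGACG occur. The 250 bases before the start are shown for UGT73D1, which rose most, and for UGT85A3, which fell, and its neighbour UGT85A1, which rose. Capitals mark every match.
UGT73D1 (TAIR10, chr3:19699393-19699642, minus strand): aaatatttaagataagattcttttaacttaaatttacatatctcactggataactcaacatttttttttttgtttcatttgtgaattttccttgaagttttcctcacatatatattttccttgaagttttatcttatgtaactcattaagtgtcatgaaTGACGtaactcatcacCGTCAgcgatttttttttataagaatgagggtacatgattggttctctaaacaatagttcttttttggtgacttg
UGT85A3 (TAIR10, chr1:7902428-7902677, minus strand): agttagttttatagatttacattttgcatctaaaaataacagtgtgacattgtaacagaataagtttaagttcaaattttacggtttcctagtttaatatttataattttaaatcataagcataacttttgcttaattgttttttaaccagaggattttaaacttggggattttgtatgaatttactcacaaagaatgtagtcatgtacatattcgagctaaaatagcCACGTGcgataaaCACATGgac
UGT85A1 (TAIR10, chr1:7906970-7907219, minus strand): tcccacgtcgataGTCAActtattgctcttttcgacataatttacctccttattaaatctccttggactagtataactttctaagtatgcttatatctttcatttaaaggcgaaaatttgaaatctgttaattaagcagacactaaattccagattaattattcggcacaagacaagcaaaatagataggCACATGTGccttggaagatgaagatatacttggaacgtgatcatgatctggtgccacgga
UGT73D1 holds TGACG with its first base at -91 and, on the other strand, at -75, counted from the start. UGT85A3 holds CACGTG at -22 and CATGTG on the other strand at -9, and UGT85A1 holds CATGTG on both strands at -60 and -58 and TTGAC on the other strand at -237. A match is a description of these letters only.

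CATGTG was present in 4 of the 6 risen members and in 1 of the 4 fallen ones. It was found in 31 of the 112 protein-coding members, or 27.7%, and in 12.9% of the 27419 windows of protein-coding genes in the table. TGACG was present in 2 risen members and 1 fallen one, in 24.1% of members and in 23.1% of all windows. TTGAC was present in 3 and 3, in 55.4% and in 50.5%, and CACGTG in 0 and 1, in 8.93% and in 7.67%. The mitochondrial dysfunction motif was in none of the 10 called members, in 4.46% of members and in 2.14% of all windows. Near copies share sequence before their starts, so the members are not independent in these counts.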

How the data were processed

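The deposited table gives normalized expression per gene and a gene length for 6 libraries. Its unit, FPKM, is not stated per the labels' protocols and was inferred from the values: the values deposited by the authors, multiplied by gene length, are whole multiples of a single step per library within a tolerance of 1e-06, for 100% of values, which gave back the reads. The scale the authors used matches median-of-ratios factors. CASAVA 1.8, HISAT2, edgeR and the TAIR10 build are named per the submitters' processing notes, and whether counting used strand is not given in the sources used here. Coordinates equal those of the RefSeq TAIR10.1 assembly for 32532 of the 32548 genes found in both, and sequences come from RefSeq.

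Genes that reached 1 FPKM in 3 or more libraries were tested with limma 3.58.1 (limma-trend, R 4.3.3) on log2(FPKM + 1), two-sided, over the whole table, on all 6 libraries with genotype as the factor; the script was tested on simulated data. The members and lists were chosen with earlier results of these data known. Called members, members with a named role and, per companion list, up to 4 called genes are named. UGT92A1, UGT71C4, UGT88A1, UGT76E4, UGT73C4, UGT85A7, AT2G30150 and members added under an alternative were chosen after their values were seen. The floor of 3 reads equals 0.138 to 0.153 CPM and covers counting error only. Alternatives were the pseudocount, the filter, the scaling, limma-voom on the recovered reads, a replicate block and leaving out each library with the same genes tested.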

Additional observations from a re-analysis of the deposited data

How the results depend on the processing

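No pairing by replicate number was seen: deviations of same-numbered libraries from their group means correlated at -0.20, -0.05 and -0.10. No library correlated best with its own number. Deviations from a mean of 3 libraries constrain each other, so these values cannot show that the libraries were unpaired. With the replicate number as a block, limma called 0 members higher and 0 lower, with 21 at an unadjusted p under 0.05. Leaving out each library in turn gave 0 to 9 members higher and 0 to 7 lower. These counts and those that follow are of members alone and do not set the family apart from other genes. Counts were 6 and 3 with a pseudocount of 0.1, 6 and 4 with a filter of 0.1 FPKM, 4 and 3 with no filter, 9 and 4 with scaling by library total, 6 and 4 with TMM scaling and 5 and 4 with limma-voom. Lost were UGT85A5 with the smaller pseudocount, UGT85A5, UGT87A2 and UGT84A2 with no filter, and UGT73C3 with limma-voom. Scaling by library total moved the median of all genes to 0.31 on the log2 scale and added UGT71B7, UGT73B2 and UGT92A1. UGT85A5 less UGT85A3, a shift of -0.91, became 0.68 with a pseudocount of 0.1 and 2.00 with limma-voom; the cause was not tested. That comparison of neighbours was added after seeing the data. Count models of edgeR and DESeq2 were planned and not run, since the deposited unit is FPKM. Depth limits members under 3 reads a library.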
